A study of Mus musculus with 12 samples.

Results

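Transcripts of 10 genes that mark lung epithelial cells were followed in RNA sequencing of mouse alveolar macrophages, the resident phagocytes of the air spaces. The genes were Ager, Sftpc, Sftpb, Cldn18, Scgb1a1, Tppp3, Epcam, Cdh1, Krt8 and Krt18. They were taken by symbol from the deposited count table of 23413 genes. All 10 were present and passed the filter on low counts, so they made up 10 of the 12748 genes tested. The series asked how the vitamin D receptor (VDR) and vitamin D3 act on these macrophages, and it held 12 libraries in 6 groups of 2. In 2 groups, wild-type cells were cultured for 24 h, either with 50 nM vitamin D3 (replicates 1 and 3) or with no agent. The other 4 groups were cells fresh from lavage: VDR knockout and wild type at 10 weeks of age, and VDR knockout and wild type at 4 weeks. The labels give no strain, sex, knockout allele or age of the cultured cells, and do not tell whether replicates were different animals. P-values thus rest on the spread between libraries of the same group, estimated over all 6 groups together and partly shared across genes. Some of that spread may be technical.

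The lung surface is covered by several epithelial cell types. Thin alveolar type I cells form the gas exchange surface, and cuboidal type II cells make surfactant, the lipid and protein film that keeps alveoli open. In the airways, club cells secrete protective proteins and ciliated cells move mucus. Epithelial cells of all these kinds are joined by cadherin and claudin junctions and carry keratin filaments. Lavage washes out the cells that lie free in the air spaces, most of which are macrophages in a healthy lung.

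Total counts ran from 10409572 in 10-week knockout replicate 2 to 23233674 in vitamin D3 replicate 1, so 1 count was worth at most 0.0904 counts per 1000000 (CPM). CPM is used here as the normalised read count, with library sizes scaled by edgeR's TMM factors. The 12 alveolar macrophage markers checked summed to between 17123 and 44144 CPM, with none at 0 counts in any library, while the 10 epithelial genes summed to between 35.2 and 661 CPM. Summed levels of other lists were 17.8 to 97.0 CPM for dendritic cells, 2.36 to 22.1 CPM for neutrophils, 1.35 to 17.3 CPM for endothelial and stromal cells and up to 5.31 CPM for B cells. The T cell list summed to between 122 and 252 CPM, most of it Cd2, and the erythroid list to between 0.541 and 2561 CPM, highest at 4 weeks. Vdr itself was at 84.2 and 45 CPM in the 10-week knockout, against 79.6 and 127 CPM in wild type. The 4-week knockout had 45.9 and 31.2 CPM, against 56.5 and 57.7 CPM in wild type. Replicate 1 of the 10-week knockout thus held no less Vdr than wild-type replicate 1. Neither difference passed edgeR's quasi-likelihood test (adjusted p = 0.538 and 0.527), and a count over the whole gene does not show a deletion of part of it. A pair of 10-week libraries has description codes that go against their genotype labels: knockout replicate 1 is coded as wild type, and wild-type replicate 2 as knockout. Knockout and wild type below mean libraries so labelled by genotype, and the 10 genes were also fitted at 10 weeks without this pair and with it exchanged. The authors' deposited log2 table goes with the genotype labels and against the exchange: each of its 4 columns for 10-week cells matched 1 library of the genotype its name states, with a largest difference of 0.0000 over 10631 genes. By Xist and Ddx3y, replicate 2 of both 10-week groups was female and the other 10 libraries were male.

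RefSeq's promoter table (build GRCm38.p6) held 6 of the 10 genes: Ager, Sftpb, Cldn18, Epcam, Krt8 and Krt18. The promoters of 4 are shown because the comparisons below turn on Ager and Epcam, and because Krt8 and Krt18 moved together. Each runs 5′ to 3′ on the gene's strand, with 250 bases before the start and 30 after it. Capitals mark AGGTCA or AGTTCA, hexamers of the kind that VDR binds in pairs, the TATA-box letters TATAAA on either strand, and the hexamer ACCGGT, which was chosen after the sequence had been read.
Ager (chr17:34597600-34597879, plus strand): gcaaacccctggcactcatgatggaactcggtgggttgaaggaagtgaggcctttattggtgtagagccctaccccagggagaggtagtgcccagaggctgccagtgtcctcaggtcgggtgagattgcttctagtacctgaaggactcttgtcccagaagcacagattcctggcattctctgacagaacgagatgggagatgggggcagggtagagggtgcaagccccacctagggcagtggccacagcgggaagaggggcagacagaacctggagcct
Epcam (chr17:87635729-87636008, plus strand): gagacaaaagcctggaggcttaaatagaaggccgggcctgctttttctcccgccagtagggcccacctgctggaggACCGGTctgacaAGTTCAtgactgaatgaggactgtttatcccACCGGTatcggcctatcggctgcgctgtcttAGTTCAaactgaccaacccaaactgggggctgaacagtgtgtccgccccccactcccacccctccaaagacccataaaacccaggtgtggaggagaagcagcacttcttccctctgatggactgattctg
Krt8 (chr15:102004313-102004592, minus strand): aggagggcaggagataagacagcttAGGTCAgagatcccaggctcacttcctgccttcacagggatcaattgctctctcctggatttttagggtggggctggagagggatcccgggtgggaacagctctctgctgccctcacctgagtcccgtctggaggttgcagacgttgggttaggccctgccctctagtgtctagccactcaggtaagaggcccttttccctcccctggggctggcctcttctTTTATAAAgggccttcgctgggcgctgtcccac
Krt18 (chr15:102027966-102028245, plus strand): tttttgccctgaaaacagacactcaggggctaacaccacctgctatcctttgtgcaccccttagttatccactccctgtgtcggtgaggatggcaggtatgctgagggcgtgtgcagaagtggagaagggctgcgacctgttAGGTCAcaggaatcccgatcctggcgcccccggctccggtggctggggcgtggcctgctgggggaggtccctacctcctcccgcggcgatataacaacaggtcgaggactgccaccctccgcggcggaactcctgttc
The Ager promoter held none of these letters. Epcam held AGTTCA and ACCGGT at 2 places each, Krt8 held AGGTCA 225 bases before the start and overlapping TATAAA matches next to the start, and Krt18 held AGGTCA 108 bases before it. Both strands were searched. Of 32851 promoter windows in the table, 15.3% held AGGTCA, 13% AGTTCA, 13.1% TATAAA and 2.13% ACCGGT. A direct repeat of AGNTCA with 3 bases between its copies was in 0.0578% of windows and in none of the 6 genes. These matches describe letters in this window and say nothing of binding.

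Levels per length differed widely between the genes. In 10-week wild-type cells, Tppp3 averaged 94.2 CPM per kb of exon, Epcam 66.7, Scgb1a1 63.3, Cdh1 18.2 and Sftpc 11.8 CPM per kb. Sftpb was at 1.87 CPM per kb, Ager at 0.934, Krt18 at 0.762, Krt8 at 0.627 and Cldn18 at 0.267 CPM per kb. Between neighbours in this order, the ranges over the 2 libraries overlapped for Epcam and Scgb1a1, for Sftpb and Ager, and for Ager and Krt18, and did not meet for the others. In 10-week knockout cells the order changed at the top: Scgb1a1 averaged 332 CPM per kb, above Tppp3 at 105 and Epcam at 61.4 CPM per kb.

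**Figure D1:**
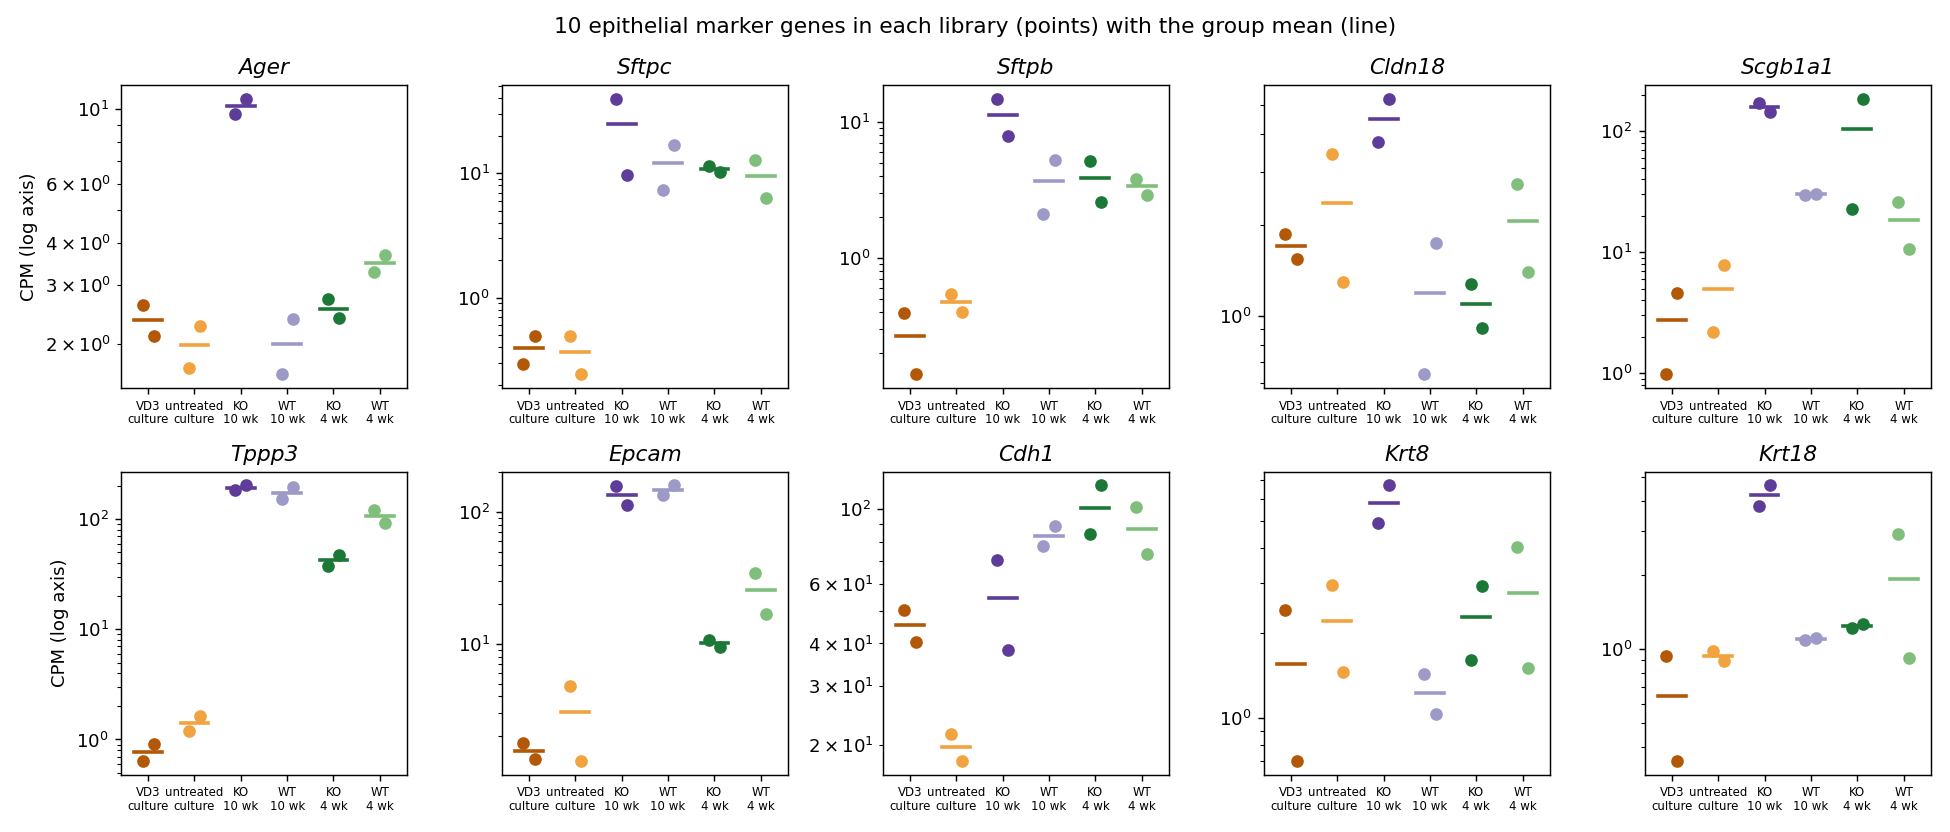
Normalised counts (CPM, log axis) of the 10 epithelial genes in each of the 12 libraries (points), with the mean of each group of 2 (line). Ager stands at 9.70 and 10.8 CPM in the 10-week knockout and at 3.67 CPM or less in every other library, while Tppp3, Epcam, Sftpc and Sftpb are lowest in both culture groups.

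In fresh cells at 10 weeks, 1 of the 10 genes passed the test between knockout and wild type: Ager, which rose. Across all tested genes 0.11% passed, and 0.0863% passed with the knockout higher. The groups did not overlap for 7 genes, of which 6 were higher in the knockout (Ager, Sftpb, Cldn18, Scgb1a1, Krt8 and Krt18) and 1 was lower (Cdh1). Over all tested genes 19.7% did not overlap with the knockout higher and 20.9% with it lower. The median log2 fold change of the 10 genes was 1.80, and that of all tested genes was -0.0083. Summed dendritic cell markers were lower in the 10-week knockout (22 and 19.5 CPM) than in wild type (46.4 and 70.0 CPM), and the alveolar macrophage markers summed to 29636 and 33658 CPM in knockout, against 23964 and 24469 CPM in wild type. The endothelial and stromal list was higher in both knockout libraries (2.93 and 2.44 CPM, against 1.87 and 1.35 CPM). Neutrophil markers overlapped (3.27 and 11.1 CPM in knockout, 2.36 and 3.32 CPM in wild type). B cell markers were lower in the knockout (0 and 0.361 CPM, against 0.886 and 1.19 CPM). Erythroid markers summed to 31.6 and 17.2 CPM in knockout and 56.9 and 51.5 CPM in wild type. The T cell list summed to 235 and 203 CPM in knockout and 238 and 252 CPM in wild type. All 5 T cell markers had a lower value in the knockout, 4 of them without overlap (median log2 -2.22), and 0 passed in edgeR. Apart from Cd2 these markers were scarce, so that median rests on few counts. Cd3e averaged 0.300 CPM over the 12 libraries, Cd3g 0.272, Cd3d 0.568 and Lck 0.971 CPM. Whether these differences bear on the epithelial genes was not tested. With the pair in label conflict exchanged, none of the 10 genes passed at 10 weeks in edgeR, and the log2 fold changes were 0.66 for Cldn18, 0.27 for Krt8, 0.21 for Krt18, -0.38 for Sftpb, -0.81 for Sftpc and -0.21 for Scgb1a1. Without the pair they were 3.02 for Cldn18, 2.22 for Krt8, 2.08 for Krt18, 1.89 for Sftpb, 0.40 for Sftpc and 2.27 for Scgb1a1. The other epithelial markers were not refitted this way. In bulk RNA, fewer cells of a type and less RNA per cell cannot be told apart.

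**Figure D2:**
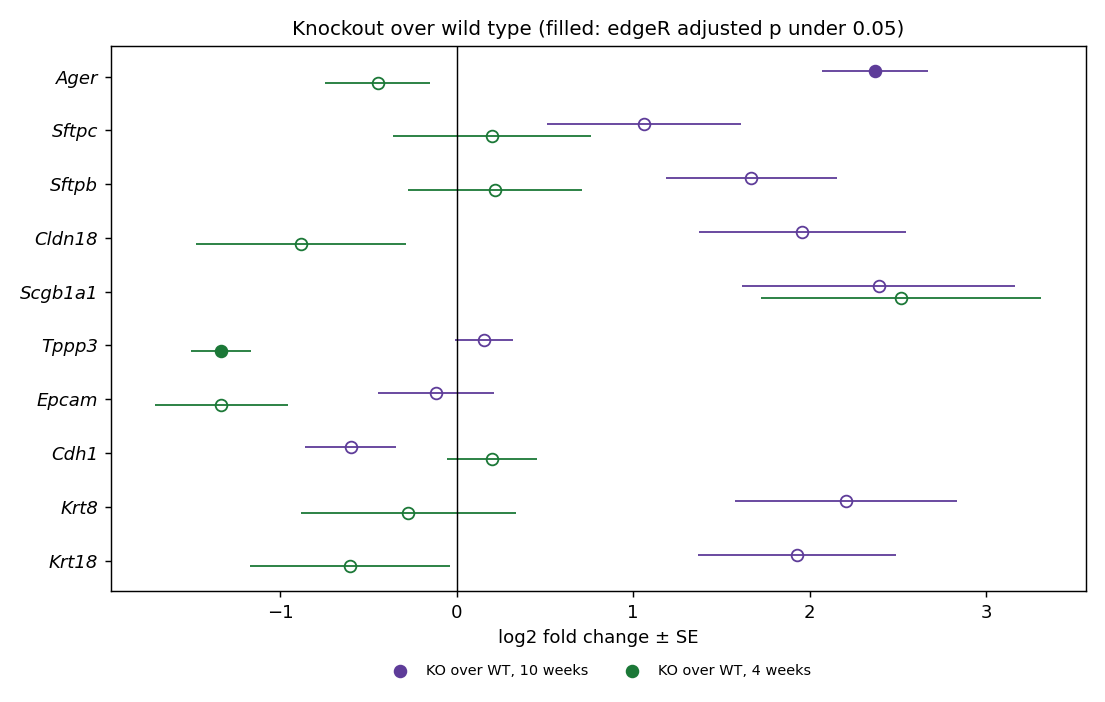
Log2 fold change of each epithelial gene between knockout and wild type (x axis, with SE as bars) at 10 weeks and at 4 weeks, from edgeR with 2 libraries per group. Filled points have an adjusted p under 0.05: Ager at 10 weeks (2.37) and Tppp3 at 4 weeks (-1.34).

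Ager encodes RAGE, a receptor carried at high levels on the type I cell surface. It was at 9.70 and 10.8 CPM in the 10-week knockout (199 and 119 counts), against 1.62 and 2.37 CPM in 10-week wild type (33 and 30 counts). Both knockout libraries were several-fold above both wild-type libraries. The log2 fold change was 2.37 ± 0.30 (SE), or 5.17-fold (edgeR, adjusted p = 0.0147). Within replicate 1 the log2 difference was 2.49, and within replicate 2, the female pair, it was 2.12. The authors' deposited log2 table, by its column names, gave a 10-week difference of 1.92 for Ager.

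At 4 weeks Ager ran the other way, at 2.71 and 2.38 CPM in knockout and 3.28 and 3.67 CPM in wild type. The groups did not overlap, but the log2 fold change of -0.45 ± 0.30 did not pass (edgeR, adjusted p = 0.609). The difference between the genotype effects at 10 and at 4 weeks was 2.82 ± 0.42 on the log2 scale and passed (edgeR interaction term, adjusted p = 0.0236). Over all genes 0.188% passed that term, 0.0628% with a positive value. Leaving out any 1 of the 8 fresh libraries ended this call, with log2 values of 2.55 to 3.09 and edgeR adjusted p of 0.0556 to 0.158, and so did a replicate block (2.83, adjusted p = 0.0602). Within the knockout, Ager was 3.99-fold higher at 10 than at 4 weeks (log2 2.0 ± 0.29, edgeR adjusted p = 0.00255, and 0.329 with the pair in label conflict exchanged), whereas in wild type the 10-week libraries were both below the 4-week ones (log2 -0.82 ± 0.31, edgeR adjusted p = 0.179, and 0.70 with the pair exchanged). Leaving out the pair of libraries in label conflict kept the 10-week log2 fold change at 2.72 with an adjusted p of 0.0632 in edgeR, and exchanging them, against the columns of the deposited log2 table, gave 0.20 with an adjusted p of 0.997. Without the female pair it was 2.57 (adjusted p = 0.149), and without any 1 of the 3 libraries other than knockout replicate 1 it lost its call, with edgeR adjusted p of 0.0688 to 0.224.

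Other type I markers were read beside Ager. Of 8 listed, 7 were tested. At 10 weeks 0 passed in edgeR, 5 had an unadjusted p under 0.05 (9.76% of all genes did), and 2 passed in DESeq2. For 6 of the 7, both knockout libraries were above both wild-type ones, as for 19.7% of all genes. Clic5, a chloride channel protein of type I cells, was at 6.05 and 4.97 CPM in the 10-week knockout and 0.788 and 0.950 CPM in wild type, and it came nearest to a call (log2 2.67 ± 0.48, edgeR adjusted p = 0.0725). Aqp5, a water channel, was at 2.97 and 3.25 CPM in knockout and 0.492 and 0.871 CPM in wild type. Within the knockout, Clic5 rose at 10 over 4 weeks (log2 2.49 ± 0.47, edgeR adjusted p = 0.00818). Over the 12 libraries the profiles most like that of Ager were those of Clic5 (Pearson r = 0.895), Timp3 (0.881) and Pde1b (0.877). Among these 3, Timp3 came first over the 8 fresh libraries (r = 0.970, against 0.953 for Clic5) and by Spearman's rho over all 12 (0.937, against 0.678 for Clic5). These correlations share libraries and depth.

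Cldn18 encodes a tight junction claudin of alveolar epithelium. It was at 3.75 and 5.24 CPM in the 10-week knockout and at 0.640 and 1.74 CPM in wild type. The groups did not overlap, and the log2 fold change was 1.96 ± 0.59 (edgeR, adjusted p = 0.264). At 4 weeks it stood at 1.27 and 0.911 CPM in knockout and 2.72 and 1.40 CPM in wild type, with knockout below. The interaction term was 2.84 ± 0.83, as large as that of Ager, with an adjusted p of 0.351 in edgeR. Over the 8 fresh libraries Ager and Cldn18 had r = 0.91 (Spearman 0.81). An annotated antisense gene overlaps Cldn18, and whether counting used strand is unknown here, so reads of both cannot be told apart.

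Sftpc and Sftpb encode surfactant proteins of type II cells. Sftpc was at 39.8 and 9.76 CPM in the 10-week knockout, against 7.39 and 17.0 CPM in wild type. Replicate 1 of the knockout was the highest library of the series, and the groups overlapped. The log2 fold change was 1.06 ± 0.55 (edgeR, adjusted p = 0.583), with 2.41 within replicate 1 and -0.79 within replicate 2. At 4 weeks Sftpc was at 11.4 and 10.3 CPM in knockout and 12.7 and 6.37 CPM in wild type. Leaving out that highest library turned the 10-week value to -0.31.

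Sftpb was at 14.8 and 7.86 CPM in the 10-week knockout and 2.12 and 5.22 CPM in wild type, without overlap (log2 1.67 ± 0.49, edgeR adjusted p = 0.243). The same knockout library was again the highest. Of 8 other type II markers, 4 had this library highest among the fresh ones (Slc34a2, Sftpa1, Sftpd and Lamp3) and 4 had another (Abca3, Napsa, Etv5 and Lpcat1). Slc34a2, a phosphate transporter, was at 8.24 and 1.81 CPM in the 10-week knockout and 0.935 and 1.82 CPM in wild type. Sftpa1, a surfactant collectin, was at 13.1 and 6.15 CPM in knockout and 3.54 and 5.14 CPM in wild type. Of the 8, 0 passed at 10 weeks between genotypes in edgeR or DESeq2, 2 had an unadjusted p under 0.05 in edgeR (9.76% of all genes), and 2 did not overlap with the knockout higher, a share near the 19.7% of all genes. Abca3, the lipid transporter of surfactant bodies, was at 105 to 157 CPM in all 12 libraries, and Napsa, the protease that processes surfactant protein precursors, at 38.9 to 72.4 CPM. In culture, Sftpc itself was at 0.492 CPM or less.

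**Figure D3:**
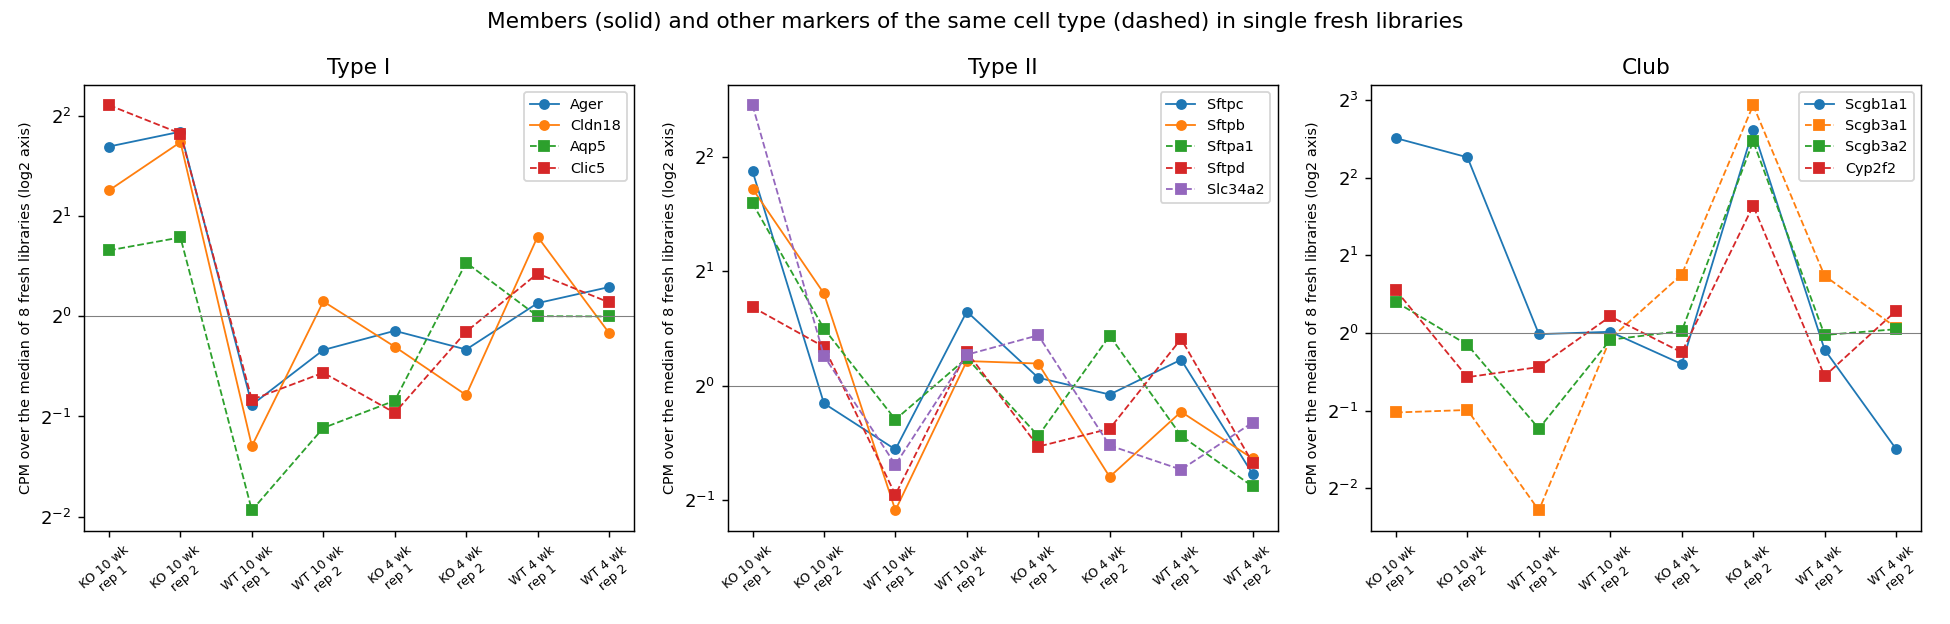
Members (solid) and other markers of the same cell type (dashed) in the 8 fresh libraries, as CPM over the median of those 8 (log2 axis). The other markers drawn were chosen after their values were seen. Of those drawn, type I markers stand high in both 10-week knockout libraries and type II markers in replicate 1 of that group. Club markers drawn stand high in 4-week knockout replicate 2. Over the whole lists, both 10-week knockout libraries were above the median of the 8 for 5 of 7 type I and 7 of 8 type II markers. Replicate 1 of that group was the highest for 3 of 7 type I and 4 of 8 type II markers. These counts were taken against the median of the fresh libraries and not against wild type. By them, type I and type II markers did not part over the whole lists as they do among those drawn. Between genotypes at 10 weeks, 6 of 7 type I and 2 of 8 type II markers were higher in the knockout with no overlap. Over all tested genes 19.7% were. For 5 of 5 club markers, 4-week knockout replicate 2 was the highest.

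Scgb1a1 encodes the secretoglobin by which club cells are known. At 10 weeks it stood at 171 and 145 CPM in the knockout and 29.8 and 30.5 CPM in wild type, with no overlap. The log2 fold change of 2.39 ± 0.77 did not pass (edgeR, adjusted p = 0.309). At 4 weeks it stood at 22.9 and 185 CPM in knockout and 26.0 and 10.7 CPM in wild type. The groups overlapped, and only replicate 2 of the knockout was high (log2 2.52 ± 0.79, edgeR adjusted p = 0.223). Over both ages the log2 fold change was 2.45 ± 0.55 with an adjusted p of 0.0649. Without the high 4-week library the 4-week value was 0.34 (edgeR adjusted p = 0.977) and the value over both ages was 1.36 (adjusted p = 0.28).

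The 5 other club markers separated these libraries. In 4-week knockout replicate 2 they summed to 162 CPM, and in the other 7 fresh libraries to between 20.3 and 64.3 CPM. Scgb3a1 was at 9.68 and 43.9 CPM in the 4-week knockout and 9.57 and 6.04 CPM in wild type, and Cyp2f2, a club cell cytochrome, at 12.2 and 45 CPM in knockout and 9.85 and 17.6 CPM in wild type. In the 10-week knockout, where Scgb1a1 was also high, the 5 others summed to 54.5 and 31.5 CPM, against 20.3 and 38.9 CPM in wild type. The 10-week sums overlapped between genotypes, whereas Scgb1a1 itself did not. Singly, 1 of the 5 did not overlap either, Cbr2, at 18.3 and 13.6 CPM in knockout and 4.63 and 9.10 CPM in wild type. Its difference did not pass (log2 1.25 ± 0.72, edgeR adjusted p = 0.645). Over all genes 19.7% did not overlap with the knockout higher.

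Tppp3 encodes a tubulin-binding protein used as a marker of ciliated cells. At 4 weeks it stood at 37.4 and 47.4 CPM in knockout and 121 and 92.5 CPM in wild type, with no overlap. It fell by 1.34 on the log2 scale (SE 0.17, edgeR adjusted p = 0.00378), when 0.667% of all tested genes passed, 0.196% with the knockout lower. Without 4-week knockout replicate 1 the adjusted p was 0.0737. Some other lists were lower in the 4-week knockout too. Dendritic cell markers were at 18.0 and 18.5 CPM in knockout and 97.0 and 32.6 CPM in wild type. Erythroid markers were at 258 and 561 CPM in knockout and 2561 and 1037 CPM in wild type. The T cell list was at 130 and 138 against 208 and 184 CPM. Higher in both knockout libraries were alveolar macrophage markers (31801 and 44144 against 30024.5 and 27148 CPM) and neutrophil markers (9.79 and 14.1 against 6.99 and 5.99 CPM). The endothelial and stromal list was higher too (5.53 and 7.92 against 3.28 and 2.46 CPM), and B cell markers overlapped. Whether any of these lists bears on Tppp3 was not tested. At 10 weeks it stood at 185 and 203 CPM in knockout and 154 and 195 CPM in wild type, which overlapped (log2 0.16 ± 0.16). The interaction term passed, at 1.49 ± 0.24 (edgeR, adjusted p = 0.0363). Of the 8 fresh libraries, leaving out any 1 except 4-week wild-type replicate 2 ended that call, with edgeR adjusted p of 0.0556 to 0.185. Over both ages Tppp3 fell by 0.59 (SE 0.12, edgeR adjusted p = 0.0429), the only 1 of the 10 genes to pass there, against 0.996% of all genes, 0.384% with the knockout lower. That call also ended without any 1 of the fresh libraries except 4-week wild-type replicate 2, with edgeR adjusted p of 0.0739 to 0.189.

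Tppp3 also differed with age. In the knockout it was 4.59-fold higher at 10 than at 4 weeks (log2 2.20 ± 0.17, edgeR adjusted p = 5.15e-05), and in wild type the log2 difference was 0.70 ± 0.17 (edgeR, adjusted p = 0.0527). The 7 other ciliated markers were low, summing to between 3.43 and 12.9 CPM in fresh cells, and 0 of the 4 tested passed in edgeR or DESeq2 in any comparison between fresh groups, with at most 1 at an unadjusted p under 0.05. Tppp3 was most like Sec14l2, a lipid-binding protein (r = 0.997 over 12 libraries), Gpr155 (0.994) and H2-DMb2, a chaperone of MHC class II loading (0.994).

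Epcam encodes an adhesion molecule of epithelial membranes. It was at 157 and 113 CPM in the 10-week knockout and 134 and 159 CPM in 10-week wild type, which overlapped, and the log2 fold change was -0.11 ± 0.33. At 4 weeks it stood at 10.7 and 9.53 CPM in knockout and 34.8 and 16.8 CPM in wild type, with the knockout below (log2 -1.33 ± 0.38, edgeR adjusted p = 0.172). Age moved it in both genotypes. In wild type it rose at 10 weeks by 2.52 ± 0.35 (5.73-fold, edgeR adjusted p = 0.00492), the 1 of the 10 genes to pass, while 2.11% of all genes passed, 1.4% being higher at 10 weeks. In the knockout it rose by 3.74 ± 0.38 (13.3-fold, edgeR adjusted p = 0.000258). All 4-week libraries were male: with the male 10-week replicate 1 alone the difference from the 4-week mean was 3.94 in knockout and 2.46 in wild type, and with the female replicate 2 it was 3.47 in knockout and 2.71 in wild type. In the knockout 3 of the 10 genes passed, all higher at 10 weeks (Ager, Tppp3 and Epcam), against 9.73% of all genes, 4.89% in that direction. There 7 genes were higher and 1 lower with no overlap, against 29.4% and 27.9% of all genes.

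Whether the age effect on Epcam differed between genotypes was tested, and the interaction of 1.22 ± 0.50 did not pass (edgeR, adjusted p = 0.533). Over the 8 fresh libraries Tppp3 and Epcam had r = 0.94 (Spearman 0.83), a pair high at 10 weeks and low at 4. Epcam and Ager had r = 0.33. Genes most like Epcam over 12 libraries were Tppp, a relative of Tppp3 (r = 0.988), Itgad, an integrin (0.987), and Dtna, a dystrobrevin (0.986).

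Cdh1, which encodes E-cadherin, was present in every library at 18.0 CPM or more. At 10 weeks it stood at 70.4 and 38.3 CPM in the knockout and 77.5 and 88.9 CPM in wild type, lower in both knockout libraries (log2 -0.60 ± 0.26, edgeR adjusted p = 0.479). At 4 weeks it stood at 84.1 and 117 CPM in knockout and 101 and 73.7 CPM in wild type, which overlapped. In the knockout the 10-week libraries were both below the 4-week ones, with a log2 difference of -0.88 ± 0.26 (edgeR, adjusted p = 0.0542). Sapcd2 (r = 0.965), Gle1 (0.958) and Nup85 (0.951) had the profiles most like that of Cdh1 over the 12 libraries. Over the 8 fresh ones r was lower, at 0.855, 0.920 and 0.816 in that order.

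With vitamin D3 in culture 1 of the 10 genes rose, Cdh1, while 10.6% of all genes passed, 5% being higher. Cdh1 was at 50.4 and 40.3 CPM with vitamin D3 and 21.6 and 18.0 CPM in untreated culture, with no overlap (log2 1.19 ± 0.27, 2.29-fold, edgeR adjusted p = 0.0163). Within the series of title numbers, the log2 difference was 1.22 in the first and 1.16 in the second. Leaving out 1 culture library at a time gave log2 values from 1.02 to 1.35, and the call was lost in 3 of the 4 cases, for either untreated library and for vitamin D3 replicate 1, with edgeR adjusted p from 0.0531 to 0.134. Both vitamin D3 values were below those of Cdh1 in 10-week wild-type cells.

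No other member passed with vitamin D3, and 8 of the 10 had a lower value with it than without it. Tppp3 was at 0.639 and 0.913 CPM with vitamin D3 and 1.2 and 1.62 CPM without it (log2 -0.86 ± 0.39, edgeR adjusted p = 0.21). Sftpc was too scarce for a comparison, with 13 counts summed over the vitamin D3 libraries and 12 over the untreated ones, and Sftpb had 10 and 15. Of the other epithelial markers, Pdpn, a type I surface protein that other cells also make, rose by 1.73 ± 0.21 with vitamin D3 (edgeR, adjusted p = 0.000372). Etv5 also rose, by 2.25 ± 0.46 (adjusted p = 0.00938), and Cav1, of caveolae, fell by 1.37 (edgeR, SE 0.27, adjusted p = 0.00805). The endothelial and stromal list was at 13.3 and 17.3 CPM with vitamin D3 and 2.41 and 3.08 CPM without it, of which Pdgfra gave 11.7 and 15.7 CPM with vitamin D3 and 0.657 and 1.38 CPM without it. Whether this bears on the epithelial genes was not tested.

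Krt8 and Krt18 encode the keratin pair of simple epithelia, and they moved together (r = 0.93 and Spearman 0.90 over the 8 fresh libraries). Krt8 was at 4.92 and 6.69 CPM in the 10-week knockout and 1.43 and 1.03 CPM in wild type. Krt18 was at 3.80 and 4.61 CPM in the 10-week knockout and 1.08 and 1.11 CPM in wild type. Neither pair overlapped, and neither passed in edgeR (log2 2.20 ± 0.63 and 1.93 ± 0.56, edgeR adjusted p = 0.234 and 0.243). In DESeq2 Krt8 passed and Krt18 did not. At 4 weeks both overlapped, with Krt8 at 1.6 and 2.94 CPM in knockout and 4.05 and 1.5 CPM in wild type, and Krt18 at 1.22 and 1.26 CPM in knockout and 2.93 and 0.917 CPM in wild type. Their interaction terms were 2.48 ± 0.87 and 2.53 ± 0.80 (edgeR, adjusted p = 0.471 and 0.386). Both genes lie on chromosome 15, as does Vdr, with 63 and 64 tested genes between each and Vdr. Keratin 8 and 18 have many pseudogene copies, so their counts are uncertain, and an annotated noncoding gene overlaps the start of Krt8.

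The largest fold changes of the 10 genes were between cultured and fresh cells. Against fresh 10-week wild type, 6 of the 10 genes fell in untreated culture (Sftpc, Sftpb, Scgb1a1, Tppp3, Epcam and Cdh1), when 42.4% of all genes passed and 21.2% fell. Against fresh 4-week wild type, 5 fell (the same genes except Scgb1a1), when 39.7% of all genes passed and 19.5% fell. The age of the cultured cells is not given, so age and culture cannot be told apart in either comparison, and the 2 comparisons share the untreated libraries. The untreated and 10-week wild-type libraries also fall into a pair of title number series, and within each series Tppp3 differed by -6.86 and -6.81, Epcam by -4.78 and -6.81, and Sftpc by -3.61 and -5.55 on the log2 scale with a prior count of 2.

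Tppp3 showed the largest of these differences among the 10 genes, at 1.2 and 1.62 CPM in untreated culture, against 154 and 195 CPM in fresh 10-week wild type and 121 and 92.5 CPM at 4 weeks. It fell by 6.97 (SE 0.25, edgeR adjusted p = 1.94e-08) against 10-week cells. Against 4-week cells it fell by 6.27 (SE 0.25, edgeR adjusted p = 5.89e-08). Epcam was at 4.76 and 1.30 CPM in untreated culture and fell by 5.49 (SE 0.44, edgeR adjusted p = 2.42e-06) and 2.97 (SE 0.43, adjusted p = 0.000219). Sftpc was at 0.492 and 0.243 CPM in untreated culture, and it fell by 4.93 (SE 0.83, edgeR adjusted p = 0.000595) and 4.58 (SE 0.84, adjusted p = 0.0011).

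Sftpb was at 0.547 and 0.405 CPM in untreated culture and fell by 2.87 against 10-week and 2.77 against 4-week cells (edgeR, SE 0.62 each, adjusted p = 0.00317 and 0.00417). Scgb1a1 was at 2.19 and 7.77 CPM in untreated culture and fell by 2.68 against 10-week cells (SE 0.91, edgeR adjusted p = 0.0333), with -1.94 ± 0.93 against 4-week cells (adjusted p = 0.117). Its call against 10-week cells ended without either 10-week wild-type library or without untreated replicate 1 (edgeR, adjusted p = 0.0773 to 0.19). Cdh1 fell by 2.06 and 2.14 (SE 0.28 each, edgeR adjusted p = 0.00011 and 8.75e-05). Ager, Cldn18, Krt8 and Krt18 did not pass in either comparison. Ager was at 1.70 and 2.27 CPM in untreated culture, inside the range of fresh 10-week wild type. It was below both 4-week wild-type libraries (log2 -0.83 ± 0.31, edgeR adjusted p = 0.0508). With a strict filter on low counts (5 CPM in 2 libraries) that difference passed. Cldn18, at 3.45 and 1.30 CPM, overlapped both fresh groups.

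Among the 33 tested markers of the other epithelial list, 13 fell and 2 rose in untreated culture against 10-week cells. Of all genes 42.4% passed there and 21.2% fell. Against 4-week cells 14 of the markers fell and 2 rose, while 39.7% of all genes passed and 19.5% fell. The highest of these markers, Krt19, a keratin of simple epithelia, was at 17.6 and 60.0 CPM in untreated culture. In fresh 10-week wild type Krt19 was at 500 and 559 CPM. It fell by 3.79 (SE 0.48, edgeR adjusted p = 7.57e-05). The 2 that rose against 10-week cells were Hopx (log2 1.67 ± 0.48) and Lpcat1 (1.64 ± 0.40), and against 4-week cells Pdpn (2.80 ± 0.26) and Lpcat1 (2.57 ± 0.42). Sftpa1, listed here as a type II marker, had 2 counts in 1 untreated library and 0 in the other 3 cultured libraries.

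**Figure D4:**
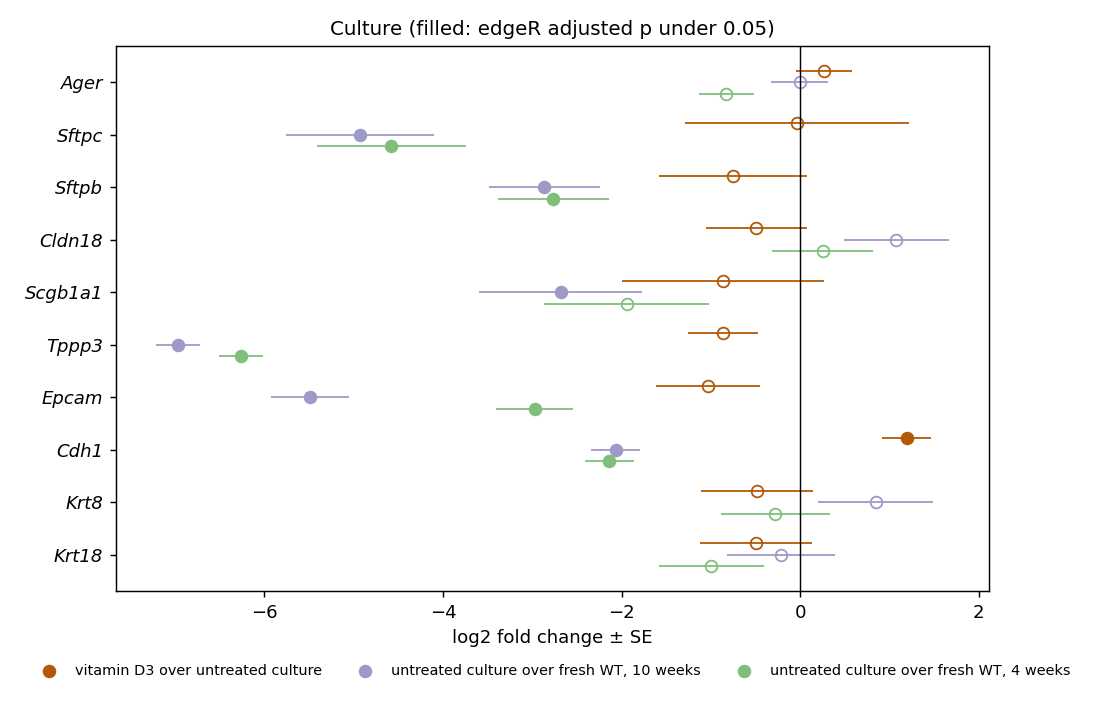
Log2 fold change (x axis, with SE as bars) of each epithelial gene for vitamin D3 over untreated culture and for untreated culture over fresh wild type at 10 and at 4 weeks, from edgeR with 2 libraries per group. Filled points have an adjusted p under 0.05, which with vitamin D3 was Cdh1 alone (1.19). Against 10-week cells 6 genes are filled (Sftpc, Sftpb, Scgb1a1, Tppp3, Epcam and Cdh1), and against 4-week cells 5, the same except Scgb1a1. Tppp3 stands lowest in the culture comparisons, at -6.97 and -6.27.

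The nearest tested neighbours on the chromosome were read for the 3 genes called by genotype or vitamin D3. Gpsm3, Pbx2, Rnf5 and Agpat1 flank Ager, Fhod1, Slc9a5, Zdhhc1 and Hsd11b2 flank Tppp3, and Prmt7, Zfp90, Tango6 and Has3 flank Cdh1. Of the 12, 0 passed in edgeR or DESeq2 between genotypes at either age or in the interaction term, and at most 1 had an unadjusted p under 0.05 in edgeR. With vitamin D3, Agpat1 rose by 0.56 ± 0.11 (edgeR, adjusted p = 0.0092), Prmt7, a neighbour of Cdh1, rose by 0.71 ± 0.18 (adjusted p = 0.0305), and Fhod1 fell by 0.60 (edgeR, SE 0.15, adjusted p = 0.0248).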

How the data were processed

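Alveolar macrophage RNA was sequenced in 12 libraries, 2 for each of 6 groups taken from the genotype, age and agent labels. Per the labels' protocols, the kits were Qiagen RNeasy Micro for RNA and KAPA mRNA HyperPrep for libraries. The authors deposited raw counts per gene. The tools named are TopHat2 and edgeR, with build mm9, per the submitters' processing notes. Tool versions, the read counter, strandedness and annotation: not given in the sources used here. A log2 table of 10631 genes was also deposited by the authors; it held 7 of the 10 epithelial genes and was read as log2(CPM + 1) because its columns sum to the same total.

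In R 4.3.3, edgeR 4.0.16 tested the counts by quasi-likelihood F test, with TMM scaling, filterByExpr (minimum count 10, minimum total 15), 1 coefficient per group and 6 residual degrees of freedom. Benjamini-Hochberg adjustment ran over all 12748 tested genes, and an adjusted p under 0.05 counted as passing. The 9 comparisons shared this fit. SE is that of a log2 fold change. Within-pair differences and correlations used log2 CPM with a prior count of 2. Levels per kb divide CPM by merged exon length in a GRCm38 annotation. With 2 libraries a group, precision is limited by their number. Replicates of every group differed by more than sampling noise (chi-square per degree of freedom 9.98 to 52.1). The code was tested on simulated counts.

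The 10 genes and the marker lists were chosen with earlier results of these data known. All 10 genes are described. Genes of like profile are the 3 with the highest Pearson r over 12 libraries among genes averaging at least 1 CPM, for each gene called in any comparison. Neighbours are the 2 tested genes on each side. Other epithelial markers named include some of those called, not always those with the lowest p, and the 3 most abundant. Not all called markers are named. Some were chosen after their values were seen (Aqp5, Slc34a2, Sftpa1, Scgb3a1, Cyp2f2, Cbr2), and Nkx2-1 was not among those with the lowest p. Alternatives were DESeq2 1.42.0, its size factors in edgeR, no filter or a strict one (5 CPM in 2 libraries), only the compared groups, a replicate block, the label conflict exchanged, and each library left out. Leaving out the female pair or the pair in label conflict was chosen after seeing the data.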

Additional observations from a re-analysis of the deposited data

Results flagged for a closer look

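The genotype effect differed between ages for 2 of the 10 genes by edgeR's interaction term. Of all genes 0.188% passed that term, 0.0628% with a positive value. As given above, these calls were mostly lost when 1 fresh library was left out. For Ager the knockout minus wild-type difference at 10 weeks exceeded that at 4 weeks by 2.82 on the log2 scale (SE 0.42, edgeR adjusted p = 0.0236). For Tppp3 it did so by 1.49 (SE 0.24, edgeR adjusted p = 0.0363). Ager was higher in both knockout libraries at 10 weeks and lower in both at 4 weeks. Tppp3 was lower in both knockout libraries at 4 weeks and overlapped between genotypes at 10 weeks. Without the female pair the values were 3.02 for Ager and 1.6 for Tppp3 (edgeR adjusted p = 0.157 and 0.115). Without the pair in label conflict they were 3.16 and 1.73 (edgeR adjusted p = 0.112 and 0.0753). With a replicate block they were 2.83 and 1.5 (edgeR adjusted p = 0.0602 and 0.0417). With the pair in conflict exchanged they were 0.65 and 1.57 (edgeR adjusted p = 0.924 and 0.0344).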

How the results depend on the processing

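Counts of the 10 genes called per comparison moved as follows. At 10 weeks between genotypes (1 called), DESeq2 called 2, the fit on the compared groups 2 and no filter 8, while exchanging the pair in label conflict, leaving out that pair or leaving out the female pair called 0. At 4 weeks (1), the fit on the compared groups called 2 and no filter 3. Over both ages (1), DESeq2 and the compared groups called 3 and no filter 7, while the exchange and leaving out either pair called 0. For the interaction (2), no filter called 7, the exchange 1, the replicate block 1 (Ager was lost), and leaving out either pair 0. For 10 against 4 weeks in the knockout (3), DESeq2 called 7, no filter 10, the compared groups 6 and leaving out the female pair 5. In wild type (1), DESeq2 called 2, the replicate block 2 (Epcam and Tppp3) and no filter 3. With vitamin D3 (1), no filter called 3. Leaving out 1 replicate gave 0 to 1 calls between genotypes at each age, over both ages, for the interaction and with vitamin D3. Neither culture against fresh count moved by over 1.5 times. Exchanging the pair in conflict turned the log2 fold changes at 10 weeks of Sftpc (-0.81), Sftpb (-0.38) and Scgb1a1 (-0.21). Over both ages it turned those of Sftpc (-0.31), Krt18 (-0.20), Ager (-0.12), Cldn18 (-0.11), Sftpb (-0.08) and Krt8 (-0.0044). At 10 over 4 weeks in wild type it turned those of Ager (0.70), Krt18 (0.37), Krt8 (0.22) and Cldn18 (0.11). Some values in other comparisons turned too and are not listed. Epcam at 10 weeks turned to 0.23 without the female pair, and leaving out 1 replicate turned it for Epcam (range -0.37 to 0.10), Sftpc (-0.31 to 1.76) and Tppp3 (-0.0042 to 0.33). Of all values of the 10 genes under these alternatives, 68 changed direction, all of values not called. Of called values, 238 kept their call and 47 lost it. The causes were not tested; with no filter more genes enter, and with libraries left out fewer samples do. Where 1 library of a group was left out, the lone library was assumed to vary like the others. The labels do not say that replicate numbers pair the libraries. Replicate differences correlated at 0.12 at 10 weeks, where the numbers go with sex and title series, at -0.12 at 4 weeks, and at 0.27 between culture libraries of the same title series. The replicate block is given as a check. In culture, Sftpc and Sftpb had at most 10 counts per library, which limits those comparisons.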

Other observations

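Among epithelial markers outside the 10 genes, Nkx2-1, a transcription factor of lung epithelium, was at 3.02 and 2.89 CPM in the 10-week knockout and 0.609 and 0.56 CPM in the 4-week knockout (log2 2.32 ± 0.65, edgeR adjusted p = 0.0466). In 10-week wild type it was at 0.591 and 0.475 CPM, below both 10-week knockout libraries, and that difference did not pass (log2 2.44 ± 0.66, edgeR adjusted p = 0.204). Pdpn rose at 10 over 4 weeks in the knockout (log2 2.17 ± 0.24, edgeR adjusted p = 0.000406) and in wild type (2.64 ± 0.26, adjusted p = 0.000724). Ocln, a tight junction protein, was at 24.3 and 40.8 CPM in the 10-week and 10.8 and 10.4 CPM in the 4-week knockout (log2 1.6 ± 0.24, edgeR adjusted p = 0.00255). The club gene Scgb3a1 fell by 3.22 there (SE 0.82, edgeR adjusted p = 0.0312), at 2.83 and 2.89 CPM in 10-week knockout cells and 9.68 and 43.9 CPM in 4-week ones. For 10 against 4 weeks in the knockout, 7 of the 33 tested markers passed, 6 higher and 1 lower at 10 weeks. Of all genes 9.73% passed, 4.89% being higher. The others to pass were Clic5, Napsa (log2 0.62 ± 0.14, edgeR adjusted p = 0.0194) and Akap5 (1.11 ± 0.29, adjusted p = 0.0335). These genes were not refitted without single libraries.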
